A study of Mus musculus with 2 samples.

Results

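The cytosolic ribosomal protein genes are the Rpl and Rps genes, which encode the protein parts of the ribosome outside the mitochondria. The rule picks them by gene symbol alone and uses no measured value, though it was set with earlier results of these data known. Symbols made of Rpl or Rps and a number were kept, together with Rplp0 to Rplp2 and Rpsa, and kinases of the Rps6k family were left out. The arrays carried 60 probes for 57 such genes, out of 16390 genes with a symbol. Of the 57 genes, 21 encode proteins of the small subunit (40S), 31 encode proteins of the large subunit (60S) and 1 encodes a protein of the ribosomal stalk (Rplp1). The other 4 are relatives of ribosomal protein genes (Rpl3l, Rpl22l1, Rpl7l1 and Rps27l). No probe carried the symbols Rps6, Rpl3, Rps27a, Rplp0 or Rplp2.

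RNA was taken from whole hearts of male C57BL/6J mice at an age of 6 months, after 3 months of either free feeding (ad libitum, AL) or caloric restriction by 40% (CR). The mice either lacked the deacetylase Sirt1 in their cardiomyocytes (knockout) or were the controls of that line. There were 4 hearts, 1 for each genotype and diet, on 2 two-colour oligonucleotide arrays: 1 array held the pair of control hearts and 1 the pair of knockout hearts. On both arrays Cy5 labelled the AL heart and Cy3 the CR heart, so the dyes were not swapped. The labels do not name the promoter that drives the deletion or describe the genotype of the controls further. The deletion is confined by design to cardiomyocytes, so the other cells of a knockout heart still carry Sirt1.

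Each condition was measured in 1 heart, so no difference below could be set against the spread between mice, and no test or p-value is given. Genotype and array cannot be told apart, because each array held 1 genotype, and diet and dye cannot be told apart within an array. In whole hearts, fewer cells of a type and less RNA per cell cannot be told apart either. Genes with a signal clearly above the array's blank spots in all 4 hearts were kept as detected, which left 11701 genes. Between 74.0% and 80.7% of all probes were detected in a heart. Sirt1 itself had a normalized log2 signal of 7.11 and 7.53 in the control hearts (AL and CR) and of 7.07 and 7.51 in the knockout hearts. The position of its probe relative to the deleted part is not given in the sources used here, so this signal does not check the genotype labels, and knockout heart means here a heart so labelled. Summed over 11 cardiomyocyte marker genes, all detected in every heart, the signal above the blank spots ran from 248043 to 268113 scanner units. The 8 endothelial markers summed to 2330 and 2386 units in the control hearts and to 1822 and 1395 in the knockout hearts, and 9 fibroblast markers to between 3203 and 4073. These sums were taken before normalization. On the normalized scale used below, 5 of the 8 endothelial markers were lower in the knockout AL heart, with a median log2 difference of -0.02. In the CR comparison 6 of 8 were lower (-0.11). Of the 9 fibroblast markers, 7 were higher in the knockout AL heart than in the control AL heart, 4 of them at least 1.5-fold. Their median log2 difference was 0.49, and 7 of 9 were higher in the CR comparison (0.16). The 8 macrophage markers with a probe, 6 of them detected in every heart, summed to between 190.4 and 314.3 units, highest in the knockout AL heart, and the 9 lymphocyte markers, 4 of them so detected, to at most 81.2. The part of such differences in the ribosomal protein values was not tested.

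A ribosome is built from ribosomal RNA and a single copy of most of these proteins, which cells make in matched amounts. Their mRNAs are among the most abundant in most cells. In mammals they typically begin at a C followed by a run of pyrimidines, the terminal oligopyrimidine or TOP motif, through which the kinase complex mTORC1 and the RNA-binding protein Larp1 adjust their translation to nutrients. In the heart, ribosome number sets much of the capacity to make protein and grows with cardiac growth. Ribosomes of heart and skeletal muscle can carry Rpl3l in place of its paralog Rpl3.

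The annotated starts of 6 named genes are shown, with and without a pyrimidine run such as the TOP motif has. These genes lie on both sides of the genotype difference described next. An annotated start without a run does not mean an mRNA without the motif. The windows come from RefSeq promoters of build GRCm38.p6 and run 5′ to 3′ on the gene's strand, with 10 bases before the annotated start base and 20 from it on. Capitals mark a C that begins a run of at least 5 pyrimidines within 5 bases of the start. The windows lie at chr3:90213629-90213658 (minus strand) for Rps27, chr7:45128726-45128755 (minus) for Rpl13a, chr2:39005112-39005141 (minus) for Rpl35, chr7:118116128-118116157 (minus) for Rps15a, chr5:121204491-121204520 (plus) for Rpl6 and chr17:24727816-24727845 (plus) for 1 of the annotated starts of Rpl3l.
Rps27: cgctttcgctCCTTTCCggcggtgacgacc
Rpl13a: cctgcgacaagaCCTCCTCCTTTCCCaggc
Rpl35: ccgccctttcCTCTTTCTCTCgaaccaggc
Rps15a: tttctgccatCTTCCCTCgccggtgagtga
Rpl6: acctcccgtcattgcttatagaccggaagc
Rpl3l: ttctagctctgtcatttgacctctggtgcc

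Of the 57 genes, 46 had a promoter in the RefSeq table and 11 had none. At an annotated start of 11 of the 46 (23.9%), the start base was C followed by at least 4 pyrimidines, against 3.01% of 27025 genes. With the start allowed to move by 5 bases, 22 of 46 (47.8%) had such a run of 5, against 21.2% of all genes. Over 250 bases before and 50 from the start, on either strand, the letters CCGGAAG, a core that ETS factors bind, occurred in 43.5% of the 46 and in 9.93% of all genes. The letters AAGATGG, a core of the YY1 site, occurred in 21.7% and 7.28%, and the GC box GGGCGG in 56.5% and 38.2%. TATAAA occurred in 6.52% and 15.7%. Each motif was counted on its own, so overlapping matches count for both. These matches describe the letters in the window and not binding.

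The ribosomal protein genes were lower in the knockout hearts than in the control hearts under either diet. A value here is the log2 ratio of the knockout over the control heart after both arrays were brought to the same signal distribution. In the AL hearts, 47 of the 54 detected genes were lower and 7 were higher, with a median of -0.32, which is a ratio of 0.803. Over all 11701 detected genes 47.6% were lower and the median was 0.01. In the CR hearts, 43 of 54 were lower, with a median of -0.25 (ratio 0.842), against 49.2% of all genes and a median of 0.00. The middle of the genes lay between -0.49 and -0.14 (AL) and between -0.38 and -0.06 (CR) in quartiles. At least 1.5-fold lower were 11 of 54 in the AL hearts, where 1.96% of all genes were, and 5 of 54 in the CR hearts, where 1.11% were. None of the 54 was 1.5-fold higher in either diet, where 2.83% (AL) and 1.49% (CR) of all genes were. Both knockout hearts lay below both control hearts for 38 of 54 genes, against 24.6% of all genes, and above both for 3, against 26.8%.

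**Figure D1:**
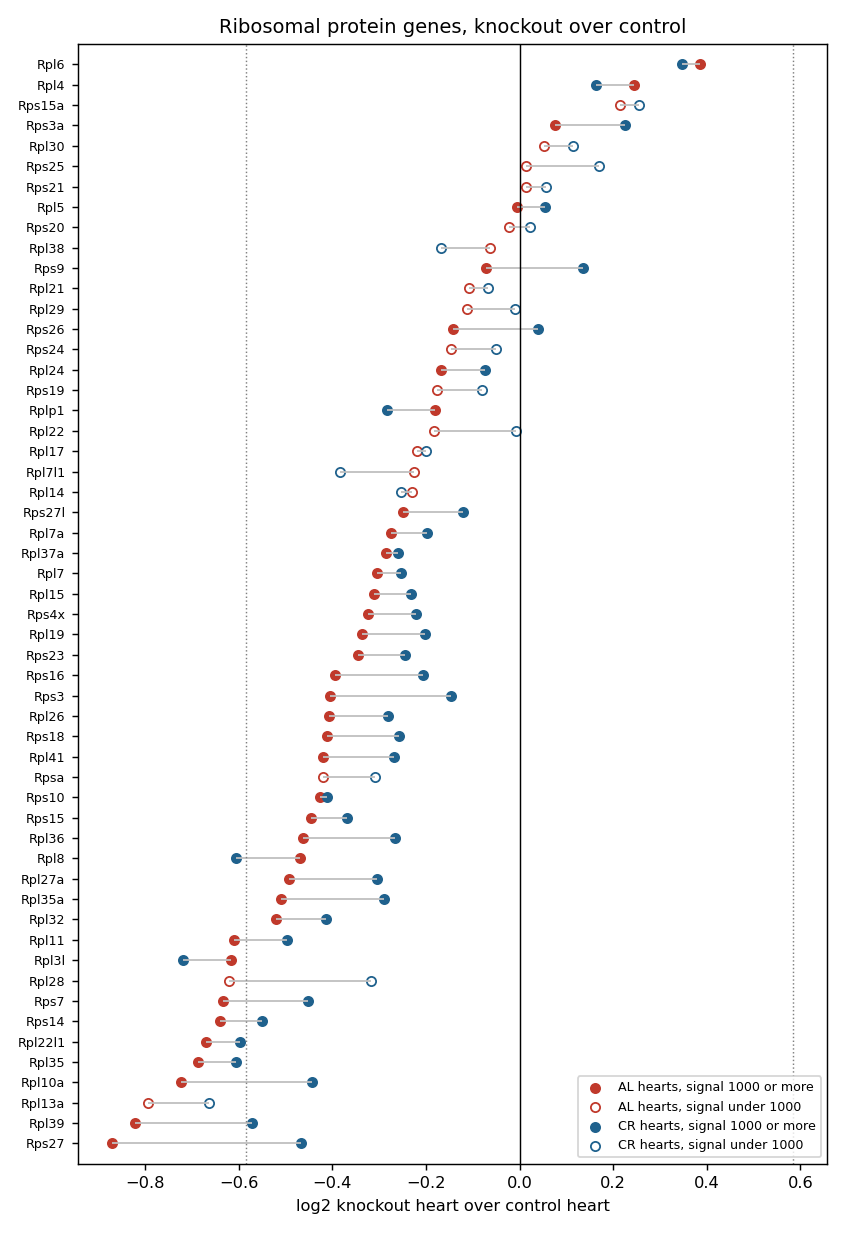
Log2 ratio of the knockout over the control heart (x axis) for each of the 54 detected ribosomal protein genes (rows, ordered by the AL value), in the AL hearts (red) and CR hearts (blue). Each point is 1 pair of hearts, open points have a mean signal under 1000 scanner units, and dotted lines mark 1.5-fold. Most pairs of points lie left of 0, from Rps27 at -0.87 (AL) to Rpl6 at 0.39 (AL).

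Rps27, a zinc-finger protein of the small subunit, was lowest in the AL comparison. Its scanner signal was 14919 and 13685 units in the control AL and CR hearts and 6303 and 8015 in the knockout AL and CR hearts. The normalized log2 signals were 13.77 and 13.50 in the control hearts and 12.90 and 13.03 in the knockout hearts. Both knockout hearts thus lay below both control hearts, by 0.87 with free feeding (a ratio of 0.547) and by 0.47 with restriction (0.723). Its start carries the 7-base run shown above. Rps7 (-0.63 and -0.45) and Rps14 (-0.64 and -0.55) were the other small subunit genes past 1.5-fold in the AL hearts. The 20 detected 40S genes had medians of -0.33 (16 lower) and -0.18 (13 lower).

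Among the 60S genes, Rpl39, whose product lines the tunnel through which the new protein leaves, had log2 signals of 11.22 and 10.89 in the control hearts and 10.39 and 10.31 in the knockout hearts. The differences were -0.82 (AL) and -0.57 (CR). Rpl13a, which also takes part in silencing of inflammatory mRNAs outside the ribosome, had 8.96 and 8.76 in the control hearts and 8.17 and 8.09 in the knockout hearts. It was lower by more than 1.5-fold in both diets, at -0.79 and -0.66. Rpl35, which sits at the exit of the tunnel, had 11.83 and 12.02 in the control and 11.15 and 11.42 in the knockout hearts. Its differences of -0.69 and -0.61 also passed 1.5-fold in both diets. Rpl10a was at 12.75 and 12.85 in the control and 12.03 and 12.41 in the knockout hearts, which gives -0.72 and -0.44. Rpl8, near the catalytic centre, had 13.03 and 13.35 in the control and 12.56 and 12.75 in the knockout hearts, and was further apart in the CR hearts (-0.61) than in the AL hearts (-0.47). In all 5 of these genes both knockout hearts were below both control hearts. The 29 detected 60S genes had medians of -0.31 (26 lower) and -0.25 (25 lower), close to those of the 40S genes with free feeding.

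**Figure D2:**
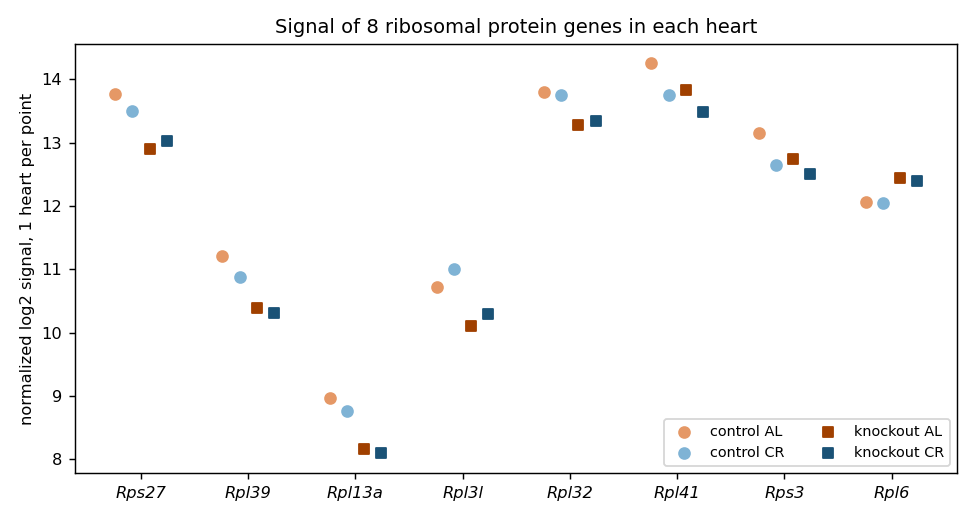
Normalized log2 signal (y axis) of 8 ribosomal protein genes (x axis) in each of the 4 hearts, 1 point per heart: control (circles) and knockout (squares), AL (orange) and CR (blue). Points are to be compared within a gene only. For Rps27, Rpl39, Rpl13a, Rpl3l and Rpl32 both knockout hearts lie below both control hearts, for Rpl6 they lie above, and for Rpl41 and Rps3 the control CR and knockout AL hearts lie close together.

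The 60S genes Rpl5 and Rpl11 encode the proteins that bind Mdm2 with 5S ribosomal RNA when ribosome assembly fails. Rpl11 was lower in the knockout hearts, with 11.90 and 11.81 in the control and 11.29 and 11.32 in the knockout hearts. The brighter probe of Rpl5 gave 13.84 and 13.67 in the control and 13.83 and 13.72 in the knockout hearts, so the 4 hearts differed little. Its dimmer probe gave -0.66 (AL) and -0.45 (CR), against -0.01 and 0.06 for the brighter probe. The 2 probes of Rpl5 thus disagreed. Those of Rpl26 had the same direction (-0.41 and -0.19 with free feeding), as did those of Rpl37a (-0.29 and -0.41). Rpl32, long used as a reference gene, had 13.80 and 13.75 in the control and 13.28 and 13.34 in the knockout hearts. Rps19, often mutated in Diamond-Blackfan anaemia, was dim and differed by -0.18 and -0.08. Rpsa, also known as a laminin receptor, had 7.13 and 7.17 in the control and 6.71 and 6.86 in the knockout hearts. It was dim as well (72.1 units above the blank spots). With the local background around each spot subtracted it differed by 0.08 and 0.00. Rpl38, which the translation of Hox mRNAs requires, was also dim (50.2 units) and differed by -0.06 and -0.17. With offset 0 in the background correction, in place of 50, it differed by -0.12 and -0.36. Rplp1, the stalk protein that recruits elongation factors, had 11.75 and 11.57 in the control and 11.57 and 11.29 in the knockout hearts, at -0.18 and -0.28.

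All 4 relatives were lower in the knockout hearts under both diets, with medians of -0.43 and -0.49. Rpl3l, the striated muscle paralog, had 10.73 and 11.01 in the control and 10.11 and 10.29 in the knockout hearts. It was lower by 0.62 and 0.72 on the log2 scale, a ratio of 0.608 in the CR hearts and the lowest CR value among the 54 genes. Rpl22l1 had 10.25 and 10.49 in the control and 9.58 and 9.89 in the knockout hearts, at -0.67 and -0.60. Its paralog Rpl22 had 8.54 and 8.57 in the control and 8.36 and 8.57 in the knockout hearts, and so differed by -0.18 with free feeding and by -0.01 with restriction. Rps27l, which p53 induces, differed by -0.25 and -0.12, and its paralog Rps27 by -0.87 and -0.47. Rpl7l1, a nucleolar relative of Rpl7, differed by -0.23 and -0.38. Probes of such relatives, and of the many processed copies of ribosomal protein genes in the mouse genome, may bind each other's transcripts. Probe sequences were not used here. Rpl13a, Rpl35, Rpl3l and Rpl22l1 were the 4 genes at least 1.5-fold lower in both diets, where 0.675% of all genes were.

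The 7 genes that were higher in the knockout hearts in both diets were Rpl6, Rpl4, Rps15a, Rps3a, Rpl30, Rps25 and Rps21. Rpl6 had 12.06 and 12.05 in the control and 12.45 and 12.39 in the knockout hearts, at 0.39 and 0.35. These values fell to 0.04 and 0.00 with median scaling between the arrays and turned to -0.13 and -0.22 with the local background subtracted. Rps15a had 8.20 and 8.16 in the control and 8.42 in each knockout heart, at 0.22 and 0.26, and stayed above 0 under both of these settings (0.14 and 0.18, 0.30 and 0.33). Both knockout hearts of Rpl6, Rps15a and Rps25 lay above both control hearts, and no other member did so. Rps25 was dim (31.3 units above the blank spots) and differed by only 0.01 in the AL hearts and by 0.17 in the CR hearts. Rps21 (25.7 units) and Rpl30 (88.8 units) were dim too. Rpl4, which reaches into the exit tunnel, had 11.95 and 12.27 in the control and 12.19 and 12.43 in the knockout hearts, so the diets overlapped between genotypes. With the median scaling Rpl4 turned to -0.10 and -0.18 and Rps3a also changed sign in both diets. In the AL hearts, 22 detected genes with a pyrimidine run near an annotated start had a median of -0.34 (20 lower). The 21 without a run had one of -0.32 (17 lower). Rps15a, with a run, was higher, and Rpl3l, without one, was lower. By this rule 21.2% of all genes have a run, and the share of members rose from 23.9% to 47.8% when the start could move. The split therefore sorts annotated starts and cannot tell whether the TOP motif went with either direction.

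With the offset of 50 in the background correction, the difference was larger among bright members. For 37 genes with a mean signal of at least 1000 scanner units above the blank spots, a line drawn after the data were seen, the median was -0.41 (34 lower) with free feeding and -0.27 (31 lower) with restriction. All 735 genes this bright had medians of 0.05 and 0.01, with 45.9% and 49.3% lower. At least 1.5-fold lower were 9 and 4 of the 37, against 6.26% and 2.99% of bright genes. For 29 of the 37 both knockout hearts lay below both control hearts, against 27.1%. The 17 dimmer members had medians of -0.15 and -0.07. With offset 0 these were -0.28 and -0.19, and those of the 37 bright members -0.42 and -0.26. In the scanner signals before any normalization, less the blank mean, the knockout over control ratio of the 37 had a median of 0.588 (AL, 36 below 1) and 0.670 (CR, 37 below 1). Over all 1053 probes this bright the median ratio was 0.837 (AL, 734 below 1) and 0.810 (CR, 850 below 1). Bright probes were thus in general dimmer on the knockout array, and the ribosomal protein genes more so. This did not hold over all the probes detected in each heart: with free feeding their median signal above the blank mean was higher in the knockout heart (34.1 units) than in the control heart, and with restriction it was 40.5 units in the knockout and 41.8 in the control.

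**Figure D3:**
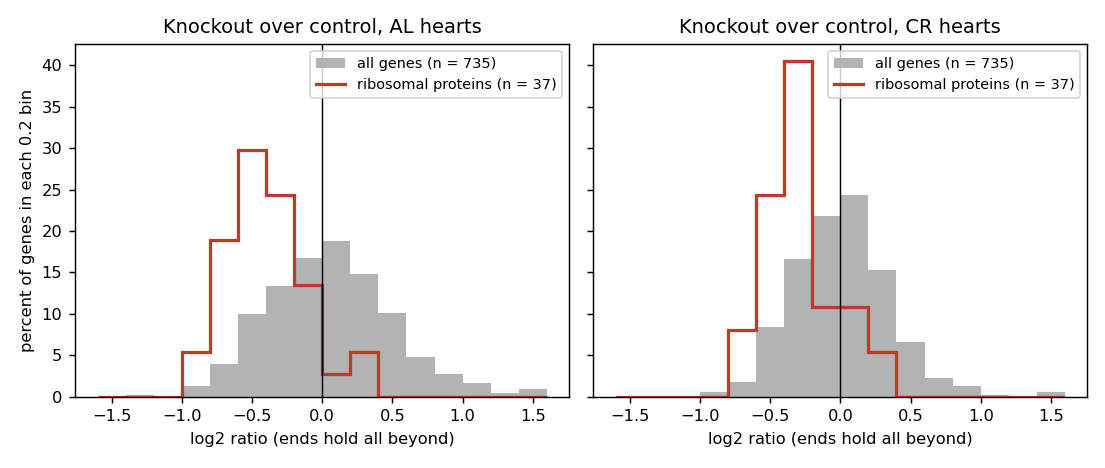
Share of genes (y axis, percent in each 0.2 bin) by log2 ratio of the knockout over the control heart (x axis), for the AL hearts (left) and CR hearts (right), among genes of at least 1000 scanner units: all 735 genes (grey) and the 37 ribosomal protein genes (red line). The red line peaks between -0.6 and -0.4 (29.7%, AL) and between -0.4 and -0.2 (40.5%, CR), while the grey bars centre near 0.

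The size of the difference depended on how the arrays were brought together, and its median stayed below 0 in each way tried. With median scaling between the arrays the medians of the 54 members were -0.63 and -0.52, against -0.00 and -0.02 for all genes. Those of the 37 bright members were then -0.70 and -0.57, against -0.19 and -0.23 for all bright genes. With the local background around each spot subtracted, the medians were -0.16 and -0.19, with 35 and 34 of 54 lower, and 18 (AL) and 21 (CR) of the 54 changed sign. At least 1.5-fold lower were then 18 and 19 of 54, where 10.4% and 10.6% of all genes were. In each diet 7 were at least 1.5-fold higher, where 10.6% and 11.4% were. Of the 37 bright members 17 were that much lower in each diet, where 33.9% (AL) and 32.7% (CR) of all bright genes were. That much higher were 6 of the 37 in each diet, where 36.1% and 37% of bright genes were. Whether the brightness around a spot is background or signal of the spot was not tested. The local background of the 37 bright members had a median of 49.6% and 49.8% of the spot in the control hearts (AL and CR). In the knockout hearts it was 63.5% and 61.3%. For Rps3, which then had the lowest AL value of the 54, it was 25.6% of the control AL spot and 99.9% of the knockout AL spot. The AL value of Rps3 went from -0.41 to -6.17. Rpl28 went from -0.62 to 0.75 (AL), Rplp1 from -0.18 to 1.19 (AL) and Rpl11 from -0.50 to 0.82 (CR). The interquartile range of all bright genes in the AL comparison grew from 0.587 to 2.10.

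In the control hearts the ribosomal protein genes differed little between the diets. The value is the log2 ratio of the CR over the AL heart within the array. Of 54 genes 35 were lower and 19 higher with CR, with a median of -0.05 and a range from -0.50 to 0.32; 49.3% of all genes were lower. No member reached 1.5-fold in either direction, where 0.367% of all genes were that much lower and 0.897% higher. Rpl41, the shortest ribosomal protein, had 14.25 in the AL heart and 13.75 in the CR heart, at -0.50. Rps3, at the entry of the mRNA channel and also a DNA repair factor, had 13.14 and 12.64, likewise at -0.50. Rps9 (-0.40) and Rpl39 (-0.33) followed. The highest were Rpl8 (0.32), Rpl4 (0.32), Rpl3l (0.29) and Rpl22l1 (0.24). The 40S genes had a median of -0.10 (14 of 20 lower) and the 60S genes one of -0.04 (18 of 29 lower). In the authors' deposited table the median of the 54 was -0.23 with 43 lower, where 52.7% of all genes and 64.4% of genes of at least 1000 units were lower, the latter with a median of -0.13. In that authors' deposited table Rpl41 (-0.72), Rps3 (-0.69) and Rps9 (-0.61) were at least 1.5-fold lower. There 4.55% of all genes and 5.72% of genes of at least 1000 units were that much lower. With loess within each block Rps3 was, as were 0.402% of all genes.

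In the knockout hearts 30 of 54 genes were higher and 24 lower with CR, with a median of 0.03 and a range from -0.35 to 0.39; 49.4% of all genes were higher. Again no member reached 1.5-fold, where 0.786% of all genes were that much lower and 0.812% higher. Rpl38 did so in the authors' deposited table, at -0.81, where 6.15% of all genes were that much lower. Rpl41 was lowest here too, with 13.83 in the AL heart and 13.48 in the CR heart (-0.35). Rpl38 (-0.33), Rplp1 (-0.28) and Rps3 (-0.24) followed. Rpl36 had 12.29 and 12.68, which gives 0.39, and Rpl10a had 12.03 and 12.41, also 0.39. Rpl28 and Rps26, which lies at the exit of the mRNA channel, were both at 0.35. Across the 54 genes the responses on the 2 arrays had a Pearson r of 0.82 and a Spearman rho of 0.86, against 0.59 and 0.54 across all genes. The arrays share the dye orientation, and genes are not independent replicates. Of the members 37 of 54 reached 1000 units, against 735 of 11701 genes. No correlation was taken over bright genes alone, so the higher values cannot be called particular to the members. With the local background subtracted r was 0.04.

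**Figure D4:**
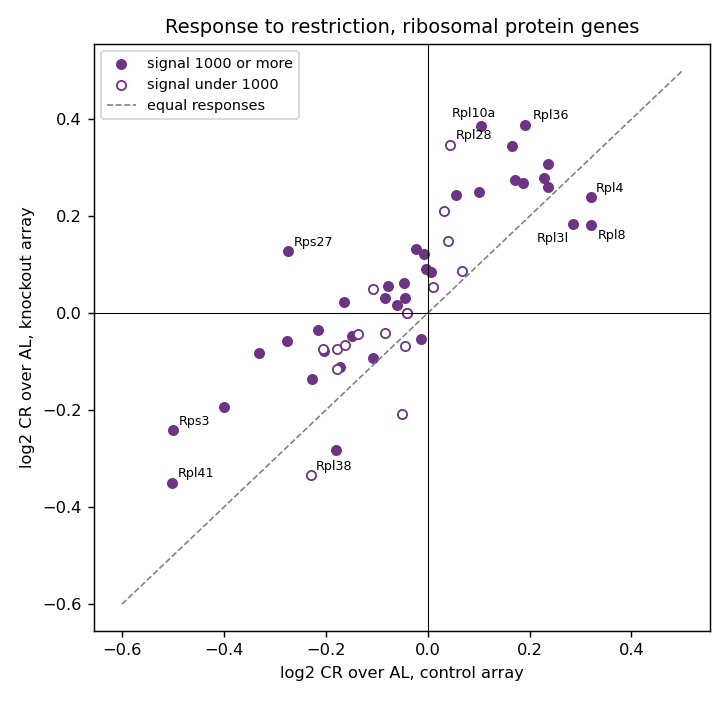
Log2 ratio of the CR over the AL heart on the control array (x axis) and on the knockout array (y axis) for the 54 detected ribosomal protein genes, 1 point per gene; open points have a mean signal under 1000 scanner units, and the dashed line marks equal responses. Of the 54 points 46 lie above the line, among them Rps27 (-0.27 and 0.13), and Rpl41 and Rps3 lie lowest on the control array at -0.50.

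The CR over AL values of most members were slightly higher in the knockout pair than in the control pair. Subtracting the control response from the knockout response gave values above 0 in 46 of 54 genes with a median of 0.10, against 49% of all genes and a median of -0.00. It ran from -0.16 to 0.40, and no member reached 1.5-fold (0.521% of all genes were that much lower and 0.393% higher). Among the 37 bright members 32 were above 0 with a median of 0.11, against 45.2% and -0.04 for all bright genes. Of the 54 genes 24 were lower with CR on both arrays, 19 were higher on both, and 11 were lower in the control and higher in the knockout pair. None was higher in the control and lower in the knockout pair. The shares of all genes in these classes were not computed, so these counts cannot be called particular to the members. No gene had opposite responses that both reached 0.2.

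Rps27 had the largest difference, 0.40: its CR over AL value was -0.27 in the control and 0.13 in the knockout pair. Rpl28 (0.30), Rpl10a (0.28) and Rps3 (0.26) followed. The lowest were Rpl7l1 (-0.16), Rpl8 (-0.14), Rpl38 (-0.10) and Rplp1 (-0.10). All 20 detected 40S genes were above 0, from 0.02 to 0.40 with a median of 0.11, and 24 of 29 60S genes were, with a median of 0.09. The count of 40S genes was 19 or 20 with offset 0, median centring, loess within each block of the array and in the authors' deposited table, and 10 with the local background subtracted. Over the 54 genes that subtraction gave 25 above 0 and a median of -0.01, so the direction did not hold under it. Of the 54 genes, 51 were above 0 in the authors' deposited table, with a median of 0.32. There 50.3% of all genes were above 0, but 73.8% of genes of at least 1000 units, with a median of 0.15. All 37 bright members were above 0 in the authors' deposited table, with a median of 0.37. Rps27 was at least 1.5-fold higher there, as were 5.97% of all genes and 2.45% of genes of at least 1000 units.

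Fau, whose product is cut to yield a further 40S protein, was lower in the knockout hearts like most members, at -0.36 and -0.21. The longer lists of ribosome production and translation had medians nearer to 0 or above it. The mitochondrial ribosomal protein genes, which serve a separate ribosome, were lower in 49 of 72 (AL) and 47 of 72 (CR), with medians of -0.14 and -0.13. Ribosome biogenesis factors, which process ribosomal RNA and assemble the subunits, were higher in 42 of 58 (AL), with a median of 0.16, and had a median of 0.05 in the CR hearts. Among them the nucleolar proteins Nop58 (0.93 and 0.81) and Ncl (0.79 and 0.41) were well above 0. The 10 detected genes of ribosomal RNA transcription, of which Polr1d (-0.36 and -0.20) and Polr1e (0.67 and 0.44) are subunits of RNA polymerase I and the others are its factors or regulators such as Ubtf and Myc, had medians of -0.01 and 0.04. With median scaling between the arrays the biogenesis factors had medians of 0.09 and -0.03, so their CR value turned. With free feeding, biogenesis factors and ribosomal proteins thus had medians on opposite sides of 0 under either scaling.

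Of 13 detected genes outside the ribosome whose mRNAs carry the TOP motif, 7 were higher and 6 lower in the AL comparison, with a median of 0.12. Tpt1, a growth-related protein with one of the best-known TOP mRNAs, was at -0.49 and -0.43, and the prefoldin subunit Pfdn5 at -0.63 and -0.30. Pabpc1, the poly(A)-binding protein, was at 0.47 and 0.14, and Naca, which guards new proteins at the tunnel exit, at 0.43 and 0.41. The 8 detected elongation factor genes had medians of 0.10 and 0.03. Eef1b2, which recharges elongation factor 1, was at -0.97 and -0.92, while Eef1a2, the muscle form of that factor, was at 0.56 in both diets. The 32 detected regulators of mTORC1, S6 kinase and TOP translation had medians of 0.02 and 0.01. The 12 eIF3 subunit genes had medians of 0.13 and 0.06, and the 36 proteasome genes had 0.25 (31 higher) and 0.10 (26 higher). Median scaling turned several of these values: the other TOP genes were then at -0.06 in both diets, the eIF3 genes at -0.02 and -0.07, the elongation factors at -0.06 and -0.16, the regulators at -0.02 and -0.03 and the proteasome genes at 0.08 and -0.06. For the difference of the responses to restriction, the proteasome genes were below 0 in 32 of 36 (median -0.17). The biogenesis factors were so in 40 of 58 (-0.11), where the ribosomal protein genes were above 0 in 46 of 54. With the local background subtracted the medians were -0.19 for proteasome genes, -0.03 for biogenesis factors and -0.01 for ribosomal protein genes. Those of the elongation factors and the other TOP genes were then 0.21 and 0.22.

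**Figure D5:**
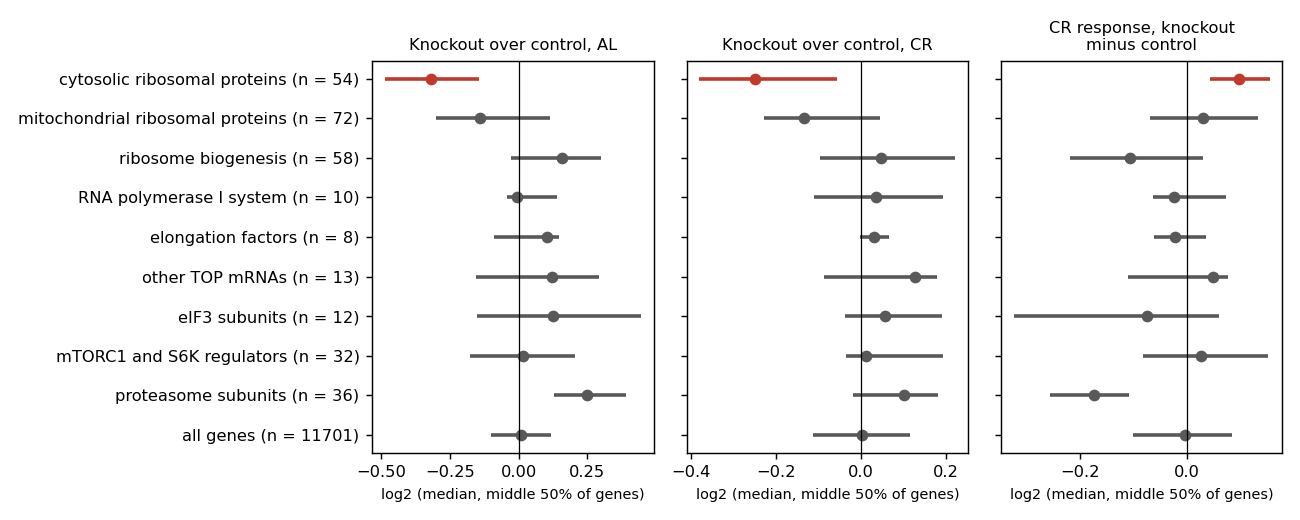
Median (point) and middle 50% of genes (bar) of 9 gene lists and of all 11701 detected genes (rows), as log2 ratio of the knockout over the control heart in the AL hearts (left) and CR hearts (middle), and as the knockout response to CR less the control response (right). The cytosolic ribosomal protein genes (red) have the lowest medians of the lists shown in the first 2 panels, -0.32 and -0.25, and the highest in the third, 0.10.

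Of the 57 genes, 3 were not detected in all 4 hearts and enter no comparison. Rpl10 was not detected in any heart, and Rpl37 and Rps12 were detected in 1 heart each. Their transcripts are abundant in most tissues, and how well these probes bind was not tested. No member's probe was marked by the scanner, and the brightest member signal, 20445 units for Rpl41 in the control AL heart, lay well below the highest signal of any spot, 65535 units. Positive control spots, 24 of each of a pair, had an SD of their log2 ratios of at most 0.088 within an array, which describes spot noise and not mice.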

How the data were processed

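Per the file headers, the deposited scanner files give each spot's intensity, as the median brightness of the spot in both dyes, and the brightness around it. Per the labels, the authors' deposited table contains normalized log2 ratios (CR/AL). Its values equalled the log2 ratio of the intensities less the trimmed blank mean, minus a constant, to within 0.001 for 17405 of 17406 and 16555 of 16556 values, which settled scale, centring (column medians 0 and 0.000238) and direction. The scanner software is not given in the sources used here.

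Intensities were corrected with normexp (offset 50, no local background) and normalized by loess within each array, and for knockout over control by Aquantile between arrays, with limma 3.58.1 in R 4.3.3. Control and marked spots had weight 0. Detected means above the blank mean, 5% left out at each end, by 2 SD. The brightest probe stood for a gene. Of 16631 probes with 1 symbol, 12622 had a current symbol, 3947 had one updated by synonym and 62 had one that did not match. On simulated data only the recovery of CR over AL ratios within an array was checked, and the step between arrays was not.

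Named genes were the 4 highest and 4 lowest of each of 5 comparisons, a fixed set (such as Rpl3l, Rpl22, Rps27, Rpl5 and Rpl11), genes with several probes or partial detection, and up to 3 of each other list. The members, lists and tests were chosen with earlier results of these data known. Alternatives were local background subtraction, offset 0, median centring, loess within blocks, the mean of probes, no detection filter, median scaling and the authors' ratios.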

Additional observations from a re-analysis of the deposited data

Results flagged for a closer look

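The median CR over AL value of the 54 ribosomal protein genes lay below 0 in the control pair (-0.05) and above 0 in the knockout pair (0.03), a difference of 0.0767 on the log2 scale. The opposite directions brought this value here, and the difference between the pairs was not tested, since each pair was measured on 1 array.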

How the results depend on the processing

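No paired analysis was possible because each genotype and diet was measured in 1 heart and no result comes from a test. The medians of knockout over control stayed below 0 under the alternatives run. In the AL hearts the median was -0.16 with local background subtraction. There 18 members were at least 1.5-fold lower and 7 higher, against 10.4% and 10.6% of all genes. Of the 37 bright members 17 were that much lower and 6 higher, against 33.9% and 36.1% of bright genes. With median scaling the median was -0.63 and 28 members were at least 1.5-fold lower (3.5% of all genes). Among the bright members 26 were, against 19.3% of bright genes. In the processing used here the median over the 37 bright members was -0.41. In the CR hearts median scaling gave -0.52 and 17 members at least 1.5-fold lower (2.44% of all genes). Of these, 16 were bright members, where 13.6% of bright genes were that much lower. Local subtraction gave 19 lower and 7 higher (10.6% and 11.4% of all genes). Among the bright members it gave 17 and 6, against 32.7% and 37% of bright genes. Median centring gave 3 lower (1.39% of all genes) and block loess 3 (1.09%), where the described value was 5 (1.11%). The difference of the responses turned to -0.0149 with local subtraction (25 of 54 higher) and was 0.32 with the authors' deposited table. The control response had a median of -0.23 in the authors' deposited table. In the processing used here 23 of the 37 bright members were lower, a smaller count from fewer genes; 29 of the 37 were lower in the authors' deposited table. Of the named single values, local subtraction moved 74 by more than the spot SD of 0.088, left 23 within it and turned 1 of those past 1.5-fold, Rpl28 in the AL comparison (0.75 in place of -0.62). Smaller values turned as well: 18 (AL) and 21 (CR) of the 54 members changed sign between genotypes. Median scaling moved 29 and left 13, the authors' ratios moved 35 and left 21, median centring moved 22 of 98, offset 0 16 and block loess 11. Other causes were not tested. The 17 members under 1000 units had medians of -0.15 (AL) and -0.07 (CR), and of -0.28 and -0.19 with offset 0. The bright members had -0.42 and -0.26 with offset 0. Why the dim members stayed nearer to 0 was not tested.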
